A study of Homo sapiens with 12 samples.

Results

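The cytoplasmic ribosomal protein genes are the genes of the proteins that make up the large and the small subunit of the ribosome in the cytoplasm. They were taken by name from the 23621 gene rows of the expression tables, as every row named RPL or RPS followed by a number and at most an A or an X, together with RPLP0, RPLP1, RPLP2 and RPSA. The rule gave 76 genes, 43 of the large subunit, 3 of its stalk and 30 of the small subunit. The stalk genes are counted with the large subunit below. Polyadenylated RNA was measured in 12 libraries of untransduced KURAMOCHI (Ku) and COV362 (Cov) cells, both human ovarian cancer cell lines, the first grown in RPMI and the second in DMEM. Each line had 2 biological replicates of cells given the vehicle DMSO, 2 of cells given 50 nM THZ1 and 2 of cells given 250 nM THZ1, all for 6 hr. THZ1 is a covalent inhibitor of CDK7 that also acts on CDK12 and CDK13, kinases that phosphorylate RNA polymerase II. The study asked what THZ1 does to gene expression in these cells, and set RNA by cell number and added ERCC spike-in RNAs before library construction.

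Ribosomal proteins are made in nearly equal numbers, because each ribosome holds a single copy of nearly all of them. Their messages are short, abundant and long-lived, and most begin with a C followed by a run of pyrimidines, the terminal oligopyrimidine (TOP) start through which growth signals control their translation. In growing tumour cells they are among the most strongly expressed genes, and MYC is a known activator of many of them.

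Of the 76 genes, 62 had an entry in the RefSeq promoter table for GRCh38.p14, and 42 of these (67.7%) had a C at the annotated start followed by at least 4 pyrimidines, against 4.04% of 27305 promoters. The start windows below are those of genes whose values are described further on. They span 30 bases, 10 before the annotated start and 20 from it, on the strand of the gene, with the TOP tract in capitals. RPLP0 and RPLP2 are stalk genes, and RPSA and RPS6 belong to the small subunit:
RPLP0 (chr12:120201092-120201121, minus strand): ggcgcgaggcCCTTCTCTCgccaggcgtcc
RPLP2 (chr11:809957-809986, plus strand): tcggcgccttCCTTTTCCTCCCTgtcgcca
RPSA (chr3:39406710-39406739, plus strand): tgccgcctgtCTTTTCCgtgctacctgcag
RPS6 (chr9:19380217-19380246, minus strand): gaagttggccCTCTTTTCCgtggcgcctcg
RPS18, RPS27 and RPL41 were among the most abundant members:
RPS18 (chr6:33272065-33272094, plus strand): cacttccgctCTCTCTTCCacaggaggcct
RPS27 (chr1:153990752-153990781, plus strand): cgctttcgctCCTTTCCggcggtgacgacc
RPL41 (chr12:56116623-56116652, plus strand): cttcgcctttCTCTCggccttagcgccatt
RPL29, RPL7A and RPL13 had large falls in Ku cells, RPL4 had one in Cov cells, and the groups of RPL39 overlapped in Ku cells:
RPL29 (chr3:51995876-51995905, minus strand): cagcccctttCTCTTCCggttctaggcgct
RPL7A (chr9:133348208-133348237, plus strand): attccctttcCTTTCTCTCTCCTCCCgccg
RPL13 (chr16:89560647-89560676, plus strand): tgctatcatcccagagtgcattgcggggcc
RPL4 (chr15:66504836-66504865, minus strand): cgggagtggtaagcaCTTCCTTTTCCTgtg
RPL39 (chrX:119791611-119791640, minus strand): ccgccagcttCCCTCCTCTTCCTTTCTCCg
RPL21 was the member listed near the floor of the table in 1 library:
RPL21 (chr13:27251548-27251577, plus strand): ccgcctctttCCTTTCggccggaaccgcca

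The tract of RPL4 begins 5 bases after the annotated start, and none was found within 10 bases of the start used for RPL13. Allowing the tract to begin anywhere within 10 bases of the start, 55 of the 62 members (88.7%) had one, against 33.3% of all promoters. In the 300-base promoter windows, read on both strands, CGGAAG, the core bound by ETS factors such as GABP, was found in 39 members (62.9%) and in 19.9% of all promoters. AANATGGC, the core bound by YY1, was found in 10 members (16.1%) against 6.82%, the SP1 box GGGCGG in 34 (54.8%) against 44.6%, the cyclic AMP element TGACGTCA in 3 (4.84%) against 1.98%, and the TATA box TATAAA in 5 of 62 members (8.06%) against 11.95%. These matches describe letters in a window.

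The 76 members lie on 21 chromosomes, and in the GENCODE annotation lifted to GRCh37 each is a protein-coding gene. Their annotated mRNAs were short, with a median of 827 bases against 3342 in 11924 active protein-coding genes, and their genes spanned a median of 5440 bases against 33400. Small nucleolar RNAs, which guide the chemical modification of ribosomal RNA, are often encoded inside ribosomal protein genes. An annotated one lay within 29 members (38.2%), 60 in all, against 2.64% of active protein-coding genes.

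Every member was active, meaning that its value was above 1 FPKM in at least 1 library, as were 14251 genes in all. FPKM count the fragments of a gene relative to its transcript length and to the mapped reads of the library, and the authors scaled them to the spike-ins, so that levels of different genes can be set side by side per length. In Ku DMSO cells the mean levels of members ran from 198 FPKM (RPL27A) to 6140.4 (RPS18), and in Cov DMSO cells from 204 (RPL27A) to 10548 (RPL41). RPS18 and RPS27, both of the small subunit, and RPL37A of the large subunit were the 3 most abundant in Ku cells. RPL41, one of the shortest human proteins, RPS27 and the stalk protein RPLP1 were the 3 most abundant in Cov cells. Across the 76 members the mean log2 levels in DMSO of the 2 lines had a Pearson's r of 0.86 and a Spearman's rho of 0.74. The tables of the lines were scaled separately, and levels were not tested between them.

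**Figure D1:**
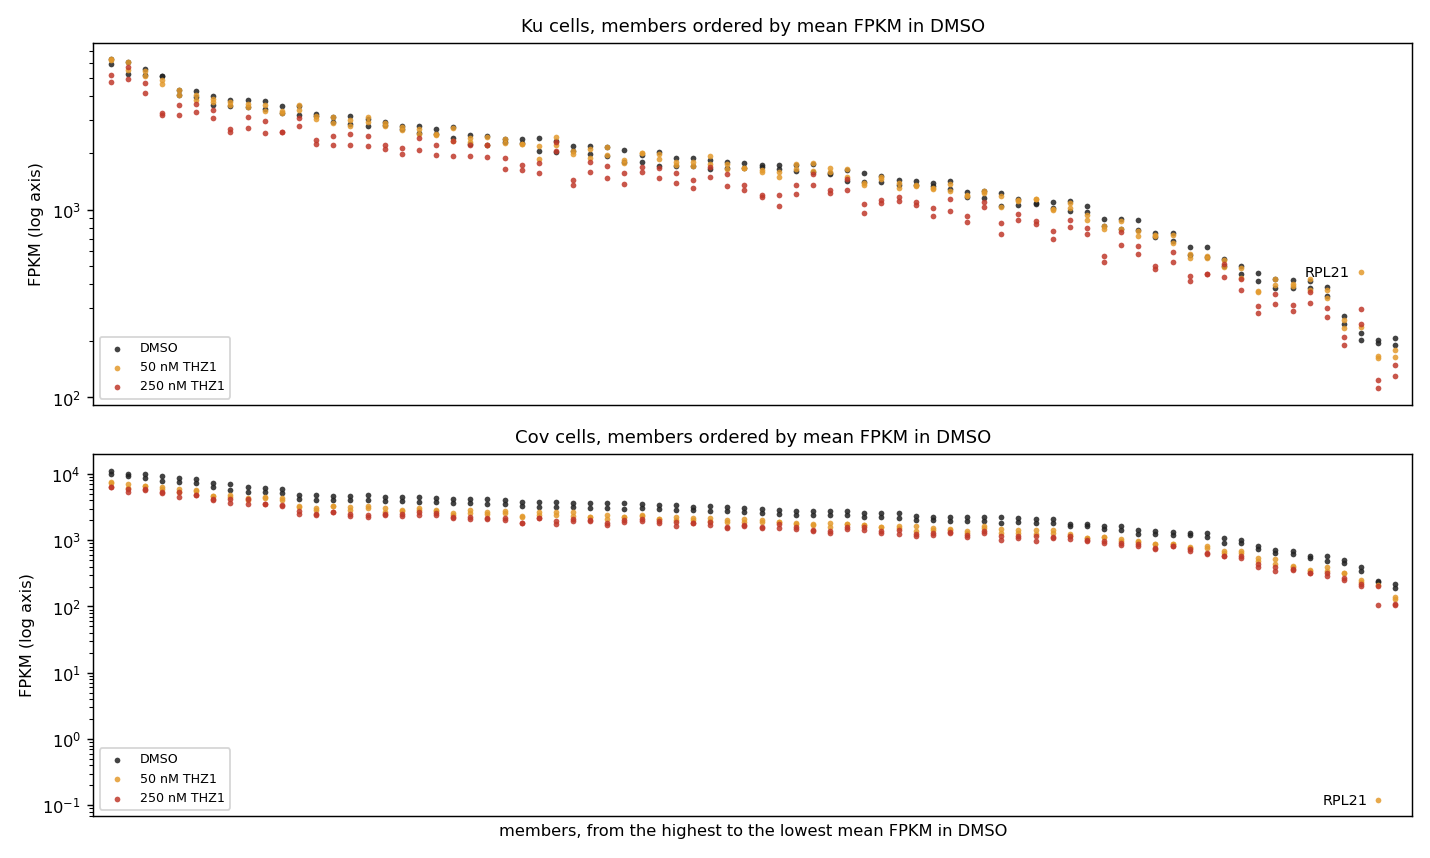
FPKM (log axis) of each of the 76 members in the 6 libraries of Ku cells (top) and of Cov cells (bottom), ordered by mean FPKM in DMSO. Points are libraries, black for DMSO, orange for 50 nM and red for 250 nM THZ1. Levels span from 198 to 6140.4 FPKM in Ku DMSO cells and from 204 to 10548 in Cov DMSO cells, and 1 point stands far below the rest, RPL21 at 0.121 FPKM in a Cov library given 50 nM.

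In the 3 Ku groups and in Cov DMSO cells the replicates differed by a shift that most members shared. The median over active genes was 12.8 and 10.9 FPKM in replicates 1 and 2 of Ku DMSO cells and 7.55 and 6.90 at 50 nM. It was 13.4 and 14.4 in Cov DMSO cells. At 250 nM in Ku cells it was 2.84 and 3.13, higher in replicate 2, where most members were lower. In Cov DMSO cells all 75 members other than RPL21 were higher in replicate 2 than in replicate 1, by a median of 0.20 on the log2 scale (quartiles 0.18 to 0.22). In Ku DMSO cells none of the 75 was higher in replicate 2, with a median difference of -0.13, and 11 and 1 of them were at 50 nM and 250 nM, with medians of -0.0749 and -0.16. In Cov cells 56 of the 75 were higher in replicate 2 at 50 nM (median 0.0803) and 31 at 250 nM (median -0.0413). The members therefore do not vary independently, and the counts of members called below are not counts of independent events.

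The labels were checked against 10 marker genes. Of the markers of serous ovarian carcinoma, PAX8, KRT8 and KRT18 stood at 120.3 FPKM or more with DMSO in both lines, and EPCAM at 4.01 and 4.24 in Ku and at 149.9 and 174 in Cov cells. WT1 stood at 60.1 and 53.4 with DMSO in Ku cells and was below 1 FPKM in Cov cells, and MUC16 stood at 5.20 and 6.22 in Cov cells and was below 1 in Ku cells, while the leukocyte marker PTPRC and the endothelial marker PECAM1 were below 1 FPKM in all 12 libraries. Of the fibroblast collagens, COL1A2 stood at 40.4 and 44.1 FPKM in Cov DMSO cells and was near the floor in Ku cells, and COL1A1 stood at 2.46 to 3.20 FPKM in the DMSO cells of both lines.

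Summed over the 76 members, the level was 0.986 of DMSO at 50 nM in Ku cells and lower at the other doses, on the deposited spike-in scale and not when libraries were scaled to their median gene. Fewer cells in a sample and less RNA per cell cannot be told apart in bulk RNA beyond the count of cells by which the authors set the input. The sum was 154338 and 142035 FPKM in the Ku DMSO libraries, 149272 and 142881 at 50 nM and 123487 and 111561 at 250 nM. Only the 250 nM libraries lay outside the range of the DMSO libraries. The mean at 250 nM stood at 0.793 of the DMSO mean. In Cov cells the sum was 227120 and 261919 FPKM in DMSO, 166463 and 172904 at 50 nM and 143884 and 143000 at 250 nM. The groups did not overlap, and the means stood at 0.694 and 0.587 of DMSO.

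The ratio of the large to the small subunit was lower in both 250 nM libraries than in both DMSO libraries of Ku cells and overlapped between groups in Cov cells, with no test of either. In Ku cells the summed large subunit was 1.18 ± 0.0030 (SD, n = 2) times the summed small subunit with DMSO, 1.17 ± 0.0027 times at 50 nM and 1.15 ± 0.0086 times at 250 nM. In Cov cells this ratio was 1.36 ± 0.0031 with DMSO, 1.36 ± 0.034 at 50 nM and 1.36 ± 0.0066 at 250 nM. At 250 nM the 46 large subunit and stalk members had a median log2 fold change of -0.37 in Ku cells and the 30 small subunit members one of -0.34. In Cov cells these medians were -0.79 and -0.75.

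As a share of all expression the members stood higher at each dose in Ku cells. They held 12.04% ± 0.66 of the summed FPKM of all genes in DMSO, 14.6% ± 0.032 at 50 nM and 18.5% ± 0.18 at 250 nM (SD, n = 2). In Cov cells the shares were 15.5% ± 0.074, 15.1% ± 0.96 and 18.8% ± 0.18. Rows of small RNAs weighed on these totals, since 2 rows named MIR1244-2 and MIR1244-3 alone held 29.6% to 46.4% of the summed FPKM of a library. These 2 rows had near-equal values, such as 254133 and 254647 FPKM in Cov DMSO replicate 1. What they measured in polyadenylated RNA was not tested. With the 1707 small RNA rows left out, the shares were 19.7%, 22.7% and 27.2% in Ku cells and 24.6%, 27.9% and 30.9% in Cov cells, in order of dose, and in both lines the groups did not overlap. The difference at 50 nM in Cov cells was 3.23 percentage points without these rows and -0.34 with them, and with them it was 0.34 when 50 nM replicate 2 was left out. A share is free of the scaling of a library only where a single factor was applied to all its genes. Whether the authors' spike-in normalization did so was not tested. With 2 libraries against 2, the exact two-sided permutation test cannot give a p under 0.333, and it gave 0.333 in each of the 4 comparisons without the small RNA rows (adjusted p = 0.333). With them it gave 0.333 in 3 (adjusted p = 0.444) and 1 for Cov cells at 50 nM.

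**Figure D2:**
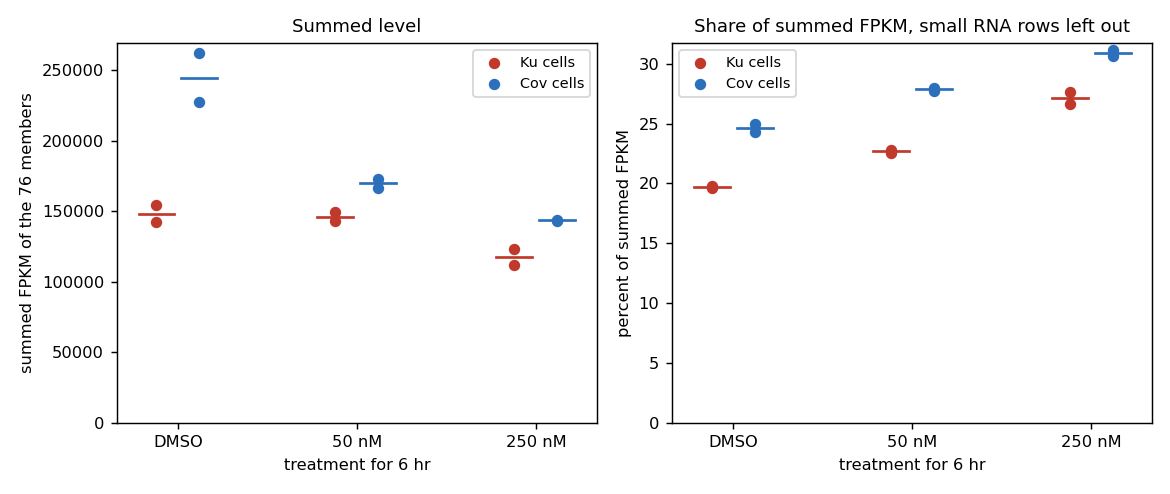
Left, summed FPKM of the 76 members on the deposited spike-in scale. Right, the percent of the summed FPKM of all genes that the members held, with the small RNA rows left out. Points are libraries, red for Ku and blue for Cov cells, and bars are group means (n = 2). The sums fall to 0.793 (Ku) and 0.587 (Cov) of DMSO at 250 nM while the shares rise from 19.7% to 27.2% and from 24.6% to 30.9%.

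At 50 nM in Ku cells no member changed past the thresholds of the study, a log2 fold change beyond 0.5 with an adjusted p under 0.001, here in the limma fit over all active genes. The count called lower was 0 of 76, where 11.3% of all active genes were called lower, and the count called higher was also 0, where 0.0842% were. At an unadjusted p under 0.05 the count was 2, against 62.5% of active genes, and at an adjusted p under 0.05 it was also 2, against 55.9% of active genes. These were RPL13 (log2 fold change -0.27, SE 0.0668, adjusted p = 0.016) and RPL13A (log2 fold change -0.25, SE 0.0747, adjusted p = 0.0296), large subunit proteins, of which RPL13A was named after its value was seen. Among the members the median log2 fold change was -0.03 and among all active genes -0.40, and it turned to 0.68 and 0.53 for the members when each library was scaled to its median gene or by median of ratios. The members' median was 0.0288 without DMSO replicate 1 and 0.0102 without 50 nM replicate 2. The 95% interval of the fold change lay within 0.5 of 0 on the log2 scale for 75 of the 76 members, against 28.7% of active genes. RPL21 was the exception.

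At 250 nM in Ku cells 9 members fell past the thresholds and none rose on the spike-in scale, while 72 were called higher when libraries were scaled to their median gene, against 26.9% of active genes in that fit. On the spike-in scale 68.6% of active genes were called lower and 0.0491% higher. By direction and an adjusted p under 0.05 alone, 56 members were lower, against 89.4% of active genes. Both 250 nM libraries lay below both DMSO libraries for 70 members, against 95.9% of active genes, and above them for RPL21 alone, against 0.414%. The median log2 fold change was -0.36, a level of 0.781 of DMSO, against -1.11 for all active genes, or 0.464 of DMSO. All 76 members had a higher fold change than the median active gene. The middle 50% of members spanned 0.17 log2 units and that of active genes 1.06. From 50 nM to 250 nM, 2 members were called lower, RPL18 (log2 fold change -0.57, SE 0.0605, adjusted p = 3.84e-04) and RPL29 (log2 fold change -0.55, SE 0.0749, adjusted p = 9.63e-04), against 36% of active genes, and the members' median was -0.31. The count of 9 at 250 nM became 1 and 4 without DMSO replicate 1 and 2, 3 without either 50 nM replicate and 1 without either 250 nM replicate, and the count of 2 from 50 nM to 250 nM became 1 without DMSO replicate 1, 0 without any other library and 4 with the replicate number as a block.

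The members called lower at 250 nM in Ku cells were RPL13, RPL8, RPL29, RPL7A, RPL36, RPL13A, RPL18 and RPLP2 of the large subunit and RPS3 of the small subunit. RPL13 had the largest fall, with 202 and 195 FPKM in DMSO, 166 and 162 at 50 nM and 123 and 112 at 250 nM (log2 fold change -0.75, SE 0.0668, adjusted p = 8.52e-05). Its libraries fell in order of dose with no overlap. RPL8, which lies by the site where peptide bonds are made, had 5164 and 5149 FPKM in DMSO, 4665 and 4893 at 50 nM and 3244 and 3201 at 250 nM (log2 fold change -0.68, SE 0.0905, adjusted p = 5.12e-04). The 250 nM libraries of RPL8 stood clearly apart, and its 50 nM libraries were below its DMSO libraries by far less.

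RPL29, a small basic protein of the large subunit, had 894 and 814 FPKM in DMSO, 818 and 787 at 50 nM and 565 and 529 at 250 nM (log2 fold change -0.64, SE 0.0749, adjusted p = 2.77e-04). One of its 50 nM libraries lay within the range of DMSO, and both 250 nM libraries were below all others. RPL7A, whose gene holds 4 annotated small nucleolar RNAs, had 2170.2 and 2049 FPKM in DMSO, 2047 and 1982 at 50 nM and 1439 and 1349 at 250 nM (log2 fold change -0.60, SE 0.078, adjusted p = 4.61e-04). Its 50 nM libraries lay just below DMSO and its 250 nM libraries well below both.

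At the other end in Ku cells stood RPL39, RPS27, RPL38 and RPL21. RPL39, a small protein that lines the tunnel through which new proteins leave the ribosome, had 2302 and 2034 FPKM in DMSO, 2424 and 2217 at 50 nM and 2291 and 2038 at 250 nM. The groups of RPL39 overlapped, and its log2 fold change at 250 nM was -0.0019 with a 95% interval of -0.27 to 0.26. RPS27, a zinc finger protein of the small subunit, had 6129 and 5240.3 FPKM in DMSO, 6065 and 5506 at 50 nM and 5749.6 and 4947 at 250 nM. Its groups overlapped too, and its interval was -0.43 to 0.25 around -0.09. RPL38 had 1824 and 1651 FPKM in DMSO, 1919.5 and 1746 at 50 nM and 1689 and 1488 at 250 nM and an interval of -0.38 to 0.12 around -0.13. Leaving out 1 DMSO or 250 nM replicate at a time moved RPL38 to between -0.2217 and -0.0393, RPL39 to between -0.0913 and 0.0876 and RPS27 to between -0.2008 and 0.0253.

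In Cov cells the members were already lower at 50 nM, on the spike-in scale and not under scaling to the median gene. Of the 76, 9 were called lower and none higher, where 70.5% of active genes were called lower and 0.0772% higher, and 75 were lower at an adjusted p under 0.05, against 91.3%. The median log2 fold change of -0.54 lay close to the threshold of 0.5, which 56 members (and 82.7% of active genes) passed in size. The median of all active genes was -0.85, and 75 members lay above it, all but RPL21. All 50 nM libraries were below all DMSO libraries for all 76 members, against 95.7% of active genes. The members called were RPL13, RPL13A, RPL15, RPL23, RPL23A, RPL27A and RPL28 of the large subunit and RPS23 and RPS28 of the small subunit. The median was 0.68 when libraries were scaled to their median gene and 0.49 by median of ratios. The count of 9 became 29 without DMSO replicate 1, 0 without DMSO replicate 2, 1 and 0 without 50 nM replicate 1 and 2, and 4 without either 250 nM replicate. It was 1 with the replicate number as a block, 3 with no minimum FPKM, 19 with a minimum of 10 FPKM and 5 after recentring on the spike-ins. Of all genes tested, 51%, 35.1%, 80.3% and 68.3% were called lower in those fits, in the same order.

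At 250 nM in Cov cells 66 members fell past the thresholds and none rose on the spike-in scale, while 75 were called higher when libraries were scaled to their median gene, against 26.4% of active genes in that fit. On the spike-in scale 84% of active genes were called lower and 0.105% higher. The median log2 fold change was -0.78, a level of 0.583 of DMSO, against -1.31 for all active genes, or 0.404. At an adjusted p under 0.05 alone 75 members were lower, against 92.7% of active genes. All 76 members lay above the median of the active genes, and both 250 nM libraries were below both DMSO libraries for all 76, against 95.6% of active genes. The fold changes ran from -0.96 to -0.61, and the middle 50% spanned 0.13 log2 units against 1.00 for active genes. Between 50 nM and 250 nM no member was called, against 24.4% of active genes called lower, and 13 members were lower at an adjusted p under 0.05, against 60.6%. At an unadjusted p under 0.05 the count was 23, against 65.5%. The median of that step was -0.24. Falling with the dose without overlap between any groups was seen for 73 of the 76 members (96.1%) in Cov cells, against 73.8% of active genes, and for 16 of 76 (21.1%) in Ku cells, against 66.7%. Both counts were 0 under scaling to the median gene and by median of ratios, and that of Ku cells was 30 after recentring on the spike-ins. The count of 66 became 9 and 7 without 250 nM replicate 1 and 2, 43 without either 50 nM replicate, and 73 and 55 without DMSO replicate 1 and 2, while the median stayed between -0.88 and -0.68. The same count became 20 with the replicate number as a block, where 78.6% of active genes were called lower. It became 14 with no minimum FPKM, where 47.8% of all rows were called lower. There the members' median minus that of all rows was -0.081 and 13 members lay above the median row.

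**Figure D3:**
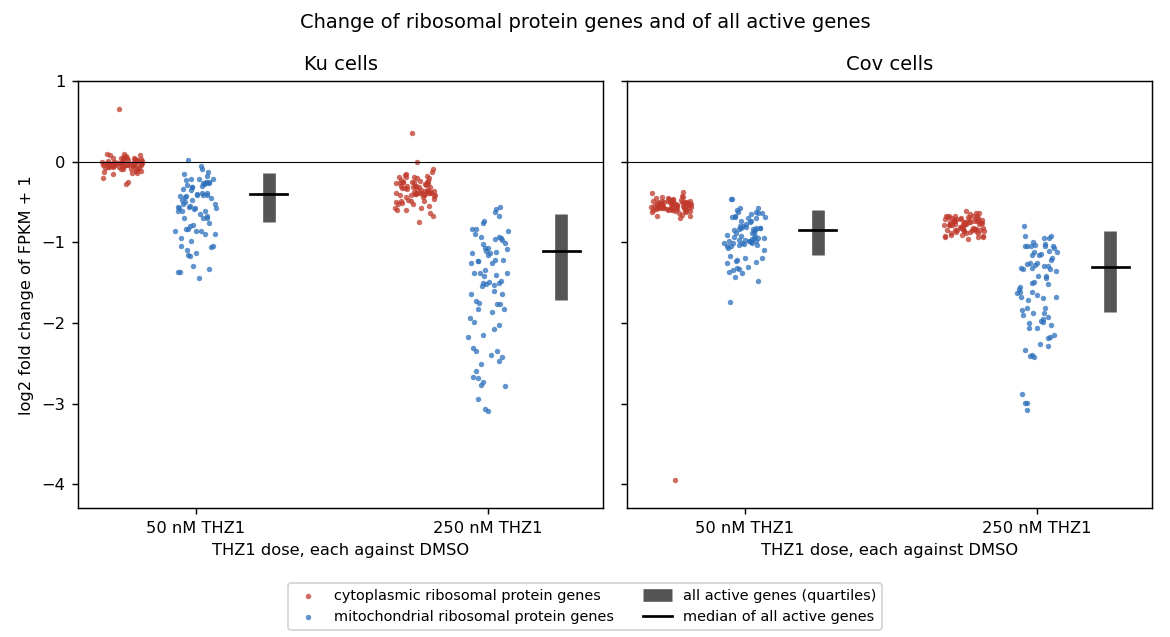
Log2 fold change of FPKM + 1 against DMSO at 50 nM and 250 nM THZ1 in Ku cells (left) and Cov cells (right) on the deposited spike-in scale. Points are genes, red for the 76 cytoplasmic and blue for the 76 mitochondrial ribosomal protein genes, and grey bars with a black line give the quartiles and the median of 14251 active genes. The cytoplasmic members form a narrow band with medians of -0.03, -0.36, -0.54 and -0.78, which turn positive when libraries are scaled to the median gene, and RPL21 stands outside it at 50 nM.

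RPL5, which with RPL11 binds MDM2 when it is not built into ribosomes, had the largest fall in Cov cells. It had 2411 and 2762 FPKM in DMSO, 1592 and 1794 at 50 nM and 1379 and 1281 at 250 nM (log2 fold change -0.96, SE 0.118, adjusted p = 1.31e-04). The 3 groups did not overlap. RPL27A, the least abundant member in DMSO, had 193 and 216 FPKM in DMSO, 128 and 138 at 50 nM and 109 and 104 at 250 nM (log2 fold change -0.93, SE 0.0908, adjusted p = 3.41e-05), again with no overlap. RPL4, which reaches into the exit tunnel, had 3265 and 3706 FPKM in DMSO, 2207 and 2333 at 50 nM and 1821 and 1824 at 250 nM (log2 fold change -0.93, SE 0.109, adjusted p = 9.65e-05). RPL15 had 1126 and 1273 FPKM in DMSO, 761 and 810.0 at 50 nM and 631 and 624 at 250 nM (log2 fold change -0.93, SE 0.0978, adjusted p = 5.20e-05). All 4 were at 0.514 to 0.523 of their DMSO mean at 250 nM.

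The smallest falls in Cov cells were those of RPS2, RPS15, RPLP2 and RPL37. RPS2, which lies where the message enters the small subunit, had 5368 and 6254 FPKM in DMSO, 4293 and 4062 at 50 nM and 3459.9 and 4151 at 250 nM (log2 fold change -0.61, SE 0.142, adjusted p = 0.00426). Its 250 nM replicates lay on either side of 1 of its 50 nM libraries, and it was not called. RPS15 had 1655 and 1784 FPKM in DMSO, 1258 and 1162 at 50 nM and 1054 and 1168 at 250 nM (log2 fold change -0.63, SE 0.105, adjusted p = 6.92e-04) and was called. RPLP2 had 1918 and 2229.7 FPKM in DMSO, 1525 and 1659 at 50 nM and 1301 and 1365 at 250 nM, below DMSO in each THZ1 library. RPL37 had 1193 and 1352 FPKM in DMSO, 879 and 872 at 50 nM and 803 and 813 at 250 nM (log2 fold change -0.65, SE 0.0966, adjusted p = 3.71e-04), with most of its change already present at 50 nM. The 10 members that were not called were RPL8, RPL12, RPL21, RPL39, RPLP1, RPLP2, RPS2, RPS18, RPS21 and RPS27. All of them but RPL21 had an adjusted p between 0.00106 and 0.00426 and a log2 fold change beyond 0.5.

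The stalk, through which elongation factors reach the ribosome, is built of RPLP0 and pairs of RPLP1 and RPLP2. In Ku cells RPLP0 had 1779 and 1668 FPKM in DMSO, 1662 and 1667 at 50 nM and 1352 and 1276 at 250 nM (log2 fold change -0.39, SE 0.0746, adjusted p = 0.00272). RPLP1 had 3538 and 3278 FPKM in DMSO, 3355 and 3271 at 50 nM and 2584 and 2580.5 at 250 nM (log2 fold change -0.40, SE 0.0859, adjusted p = 0.00465). RPLP2 had 1726 and 1678 FPKM in DMSO, 1621 and 1585 at 50 nM and 1199 and 1167 at 250 nM (log2 fold change -0.52, SE 0.067, adjusted p = 4.19e-04). RPLP2 was called and the other two were not, and the differences among the 3 were not tested. In Cov cells the log2 fold changes at 250 nM were -0.75 for RPLP0, -0.67 for RPLP1 and -0.63 for RPLP2, with adjusted p values of 3.66e-04, 0.00149 and 0.00106, so that only RPLP0 was called. RPLP1 there had 8652 and 9901 FPKM in DMSO, 6491 and 6458 at 50 nM and 5674 and 5941 at 250 nM. Its 50 nM and 250 nM libraries were all below DMSO.

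Some ribosomal proteins have other known roles. RPS6, the substrate of the S6 kinases, had 3769 and 3425 FPKM in DMSO, 3619 and 3357 at 50 nM and 2956 and 2568 at 250 nM in Ku cells (log2 fold change -0.38, SE 0.112, adjusted p = 0.0171) and 2732 and 3211 FPKM in DMSO, 1874 and 2022 at 50 nM and 1593 and 1544 at 250 nM in Cov cells (log2 fold change -0.92, SE 0.117, adjusted p = 1.53e-04). It passed the thresholds at 250 nM in Cov cells and not in Ku cells. RPL11, the partner of RPL5, had 3109 and 2905 FPKM in DMSO, 3106 and 2889 at 50 nM and 2456 and 2204 at 250 nM in Ku cells (log2 fold change -0.37, SE 0.0982, adjusted p = 0.0116) and 4080.5 and 4721 FPKM in DMSO, 3227 and 3230.0 at 50 nM and 2661 and 2702 at 250 nM in Cov cells (log2 fold change -0.71, SE 0.116, adjusted p = 6.21e-04). RPL5 in Ku cells had 1891 and 1696 FPKM in DMSO, 1785 and 1696 at 50 nM and 1429.7 and 1300.4 at 250 nM (log2 fold change -0.39, SE 0.092, adjusted p = 0.00674). In Ku cells RPL5 and RPL11 stood at 0.761 and 0.775 of DMSO at 250 nM, and neither was called.

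RPSA, also known as the laminin receptor, had 1137 and 1051 FPKM in DMSO, 1129 and 1112 at 50 nM and 951 and 880.2 at 250 nM in Ku cells (log2 fold change -0.26, SE 0.0757, adjusted p = 0.0178) and 2833 and 3208 FPKM in DMSO, 2026 and 2177 at 50 nM and 1829.8 and 1842 at 250 nM in Cov cells (log2 fold change -0.72, SE 0.109, adjusted p = 4.40e-04). RPS27A, made as a fusion with ubiquitin, had 2179 and 1968 FPKM in DMSO, 2098 and 1879 at 50 nM and 1789.9 and 1575 at 250 nM in Ku cells (log2 fold change -0.30, SE 0.108, adjusted p = 0.0356) and 3161 and 3685 FPKM in DMSO, 2355 and 2689 at 50 nM and 2120.4 and 1968 at 250 nM in Cov cells (log2 fold change -0.74, SE 0.128, adjusted p = 8.69e-04). Both were called lower in Cov cells and not in Ku cells, and the difference between the lines was not tested. None of the 3 most abundant members in Ku cells passed the thresholds at 250 nM. RPS18 had 6311 and 5969.6 FPKM in DMSO, 6307 and 6235 at 50 nM and 5208 and 4755 at 250 nM in Ku cells (log2 fold change -0.30, SE 0.107, adjusted p = 0.0353). RPL41 had 9886 and 11209.6 FPKM in DMSO, 7399 and 7434 at 50 nM and 6262 and 6304 at 250 nM in Cov cells (log2 fold change -0.74, SE 0.128, adjusted p = 8.49e-04). RPL37A in Ku cells was at -0.27 (adjusted p = 0.0618), which missed the threshold.

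RPL21 stood apart from the other members in both lines. In Ku cells it had 220.3 and 202 FPKM in DMSO, 237 and 468 at 50 nM and 247 and 295 at 250 nM, higher in every THZ1 library than in DMSO, and its replicates at 50 nM lay far apart. Its log2 fold change was 0.66 ± 0.30 at 50 nM and 0.36 ± 0.30 at 250 nM (SE, adjusted p = 0.109 and 0.292), and neither was called. In Cov cells it had 235 and 242 FPKM in DMSO, 213 and 0.121 at 50 nM and 206 and 105 at 250 nM. Its fold change there was -0.69 (log2) with 250 nM THZ1, and -1.17 and -0.21 without 250 nM replicate 1 and 2, while that of Ku cells was 0.23 without 250 nM replicate 2. The value of 0.121 lies just above 0.101, the floor that most unexpressed genes of that library share, while the other replicate of the group was at 213. A row named RPL21P28, a pseudogene of RPL21, held more than RPL21 in each library. In Ku cells it had 1069 and 925 FPKM in DMSO, 993 and 614 at 50 nM and 858 and 638 at 250 nM, and in Cov cells 919.5 and 1092 FPKM in DMSO, 556 and 914 at 50 nM and 511 and 509 at 250 nM.

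The split between the 2 rows differed between libraries. RPL21 held 17.1% to 43.2% of their sum in Ku libraries and 0.013% to 28.7% in Cov libraries. The sum itself was 1289 and 1127 FPKM in Ku DMSO cells, 1231 and 1081 at 50 nM and 1105 and 933 at 250 nM. In Cov cells it was 1155 and 1334 FPKM in DMSO, 769 and 915 at 50 nM and 717 and 614 at 250 nM. The sum was thus lower at 250 nM than in DMSO in both lines, as was the level of most members, where RPL21 alone was higher in Ku cells. How the authors' quantification divided reads between these 2 rows was not tested. RPL21 lies at chr13:27825499-27830828 on the plus strand of GRCh37.

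Other copies of ribosomal protein genes were in the tables as well. Of 28 rows of ribosomal protein pseudogenes 20 were active, and 5 of these were called lower in Ku and 12 in Cov cells at 250 nM, against 68.6% and 84% of active genes. The largest was RPL13AP5, with 2159 and 2093 FPKM in DMSO, 2002 and 1893 at 50 nM and 1486 and 1407 at 250 nM in Ku cells, above its parent RPL13A, which had 459 and 417 FPKM in DMSO, 363 and 369.6 at 50 nM and 306 and 280.2 at 250 nM. Values of members with such copies are uncertain to the extent that reads could be divided between them.

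The members shared little of their order between the lines at 250 nM. Over the 75 members without RPL21, Pearson's r between the log2 fold changes of Ku and Cov cells was 0.07 and Spearman's rho 0.04 at 250 nM, and both were 0.41 at 50 nM. Over all active genes r was 0.67 and rho 0.71 at 250 nM. The spread of members is narrow, with a middle 50% of 0.17 and 0.13 log2 units in Ku and Cov cells, beside a median SE of 0.092 and 0.116.

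**Figure D4:**
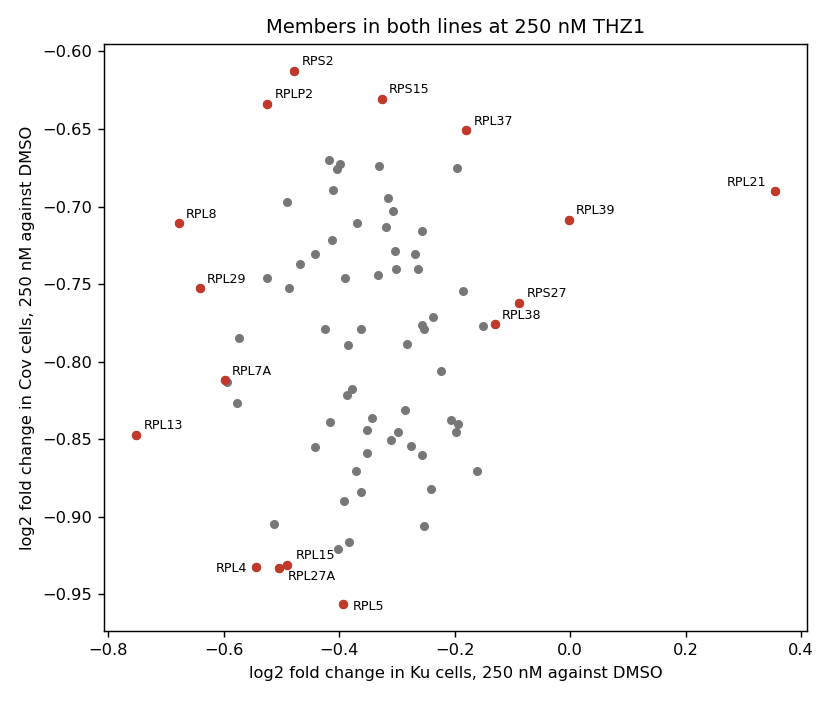
Log2 fold change at 250 nM THZ1 against DMSO on the deposited spike-in scale, Ku cells on the horizontal axis and Cov cells on the vertical axis, for the 76 members. Red points are the 4 members with the largest and the 4 with the smallest fall in each line. All members lie below 0 in Cov cells and all but RPL21 in Ku cells, signs that reverse for the members' medians under scaling to the median gene, and r between the lines is 0.07 without RPL21.

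Within the band, the members' fold changes at 250 nM went with the GC content of their mRNAs, in opposite directions in the 2 lines. Over 75 members Spearman's rho between fold change and GC content was -0.53 (Ku) and 0.50 (Cov), and over active protein-coding genes 0.01 and 0.25. The 25 members of lowest GC had a median of -0.26 and 1 call in Ku cells, and the 25 of highest GC had -0.42 and 7 calls. In Cov cells the same sets had -0.84 with 24 calls and -0.71 with 19 calls. These calls were all falls, where 68.6% (Ku) and 84% (Cov) of the whole active set passed the thresholds downward. Replicates of 1 group also differed along GC content, least in Cov cells given DMSO. The rho of the difference between replicates of a group was -0.61, -0.64 and -0.53 in Ku cells given DMSO, 50 nM and 250 nM, and 0.19, 0.63 and -0.71 in Cov cells. Taking single pairs of a 250 nM and a DMSO library, rho ran from -0.62 to -0.32 in Ku cells and from -0.05 to 0.67 in Cov cells. The order of members within each line at 250 nM thus moved with a property along which replicates also differed, and the part of GC content in it was not tested.

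**Figure D5:**
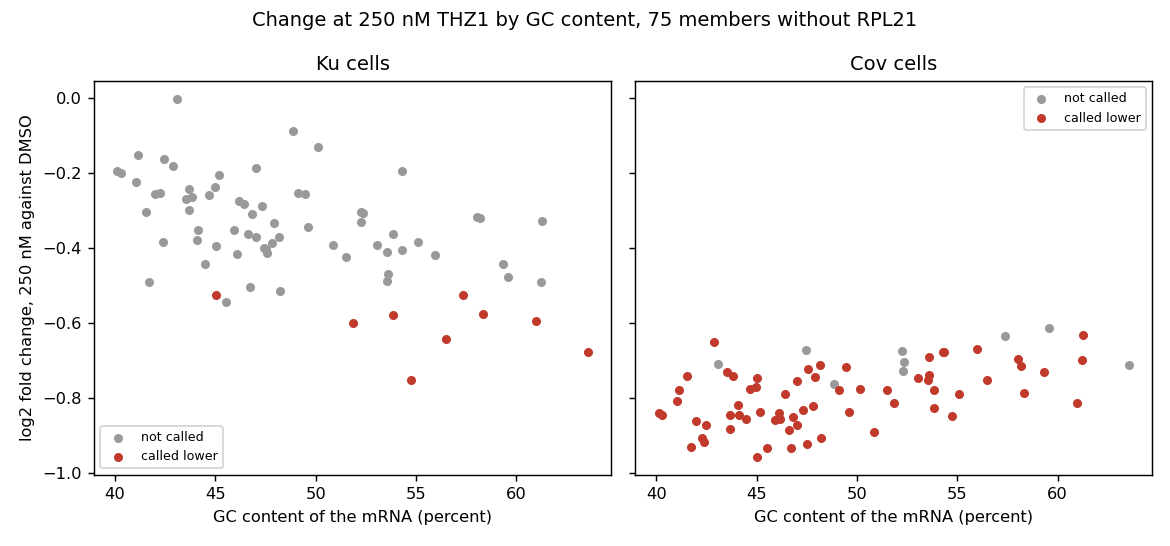
Log2 fold change at 250 nM THZ1 against DMSO on the deposited spike-in scale (vertical axis) and GC content of the annotated mRNA in percent (horizontal axis) for the 75 members other than RPL21, in Ku cells (left) and Cov cells (right). Red points passed the thresholds. Spearman's rho is -0.53 (Ku) and 0.50 (Cov), and the falls reverse for the members' medians when libraries are scaled to the median gene.

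Beside the genes of the other ribosome of the cell, the members had higher median levels relative to DMSO, a difference described here without a test. The 76 mitochondrial ribosomal protein genes, whose products translate the messages of the mitochondrial genome, were all active, and in Ku cells 17 of the list were called lower at 50 nM and 72 at 250 nM, against 11.3% and 68.6% of active genes. For Cov cells the counts were 67 and 76, against 70.5% and 84%. Their median level in Ku cells was 0.681 of DMSO with 50 nM and 0.357 with 250 nM, where that of the cytoplasmic members was 0.978 and 0.781. In Cov cells it was 0.521 and 0.351, against 0.687 and 0.583. At 250 nM the mitochondrial genes ran from -3.09 to -0.56 in Ku cells and from -3.08 to -0.79 in Cov cells, so that in each line the 2 lists overlapped at their edges.

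A list of 20 other genes whose messages are known for a TOP start, among them translation factors, lay between. In Ku cells the thresholds were passed by 0 of them at 50 nM and by 11 at 250 nM, with medians of 0.895 and 0.642 of DMSO, and in Cov cells by 6 and by 19, with medians of 0.662 and 0.526, each lower than DMSO. The shares of active genes beside these counts were again 11.3% and 68.6% in Ku cells and 70.5% and 84% in Cov cells. EEF1A1, which carries aminoacyl-tRNA to the ribosome, had 5108 and 4722 FPKM in DMSO, 4486 and 4347 at 50 nM and 3456 and 3186 at 250 nM in Ku cells (log2 fold change -0.57, SE 0.1, adjusted p = 0.0019). EEF2, which moves the ribosome along the message, had 769 and 743 FPKM in DMSO, 650.0 and 666 at 50 nM and 416 and 409 at 250 nM in Ku cells (log2 fold change -0.87, SE 0.057, adjusted p = 2.79e-05). EEF2 was called and EEF1A1 missed the threshold.

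A list of 10 paralogs and fusion genes of ribosomal proteins that the rule leaves out had lower median levels relative to DMSO than the members, again without a test of the difference. The list does not hold every such copy. Of the 10 genes 8 were active. At 250 nM the calls were 5 of the 8 in Ku and 7 in Cov cells, each lower, against 68.6% and 84% of active genes, with medians of 0.493 and 0.439 of DMSO. RPL36AL had 334 and 305 FPKM in DMSO, 240.3 and 202 at 50 nM and 128 and 109 at 250 nM in Ku cells (log2 fold change -1.43, SE 0.115, adjusted p = 5.78e-05), with all groups apart. RPL7L1 was at -1.82 and -2.07 in Ku and Cov cells at 250 nM, and RPL39L, the paralog of RPL39, at -2.30 and -1.25. FAU, which like RPS27A encodes a ribosomal protein fused to a protein of the ubiquitin family, was nearer to the members, at -0.45 in Ku cells and -0.61 in Cov cells.

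The direction of the members depended on the scale. On the deposited scale, set by spike-ins per cell, the 250 nM medians were -0.36 (Ku) and -0.78 (Cov). When each library was scaled to the median of its active genes, the medians were 1.62 and 1.30, and 72 and 75 members were called higher, against 26.9% and 26.4% of active genes. Scaling by median of ratios gave 1.10 and 0.84, with 57 and 74 called higher, against 11.1% and 8.57%. These scalings moved the median log2 fold change of all active genes at 250 nM from -1.11 to 0.29 and 0.00 in Ku cells and from -1.31 to 0.31 and 0.01 in Cov cells. In each of these fits the members lay above the median active gene, by 0.75, 1.34 and 1.10 in Ku cells and by 0.53, 0.99 and 0.82 in Cov cells.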

How the data were processed

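RNA-seq of 12 libraries was analysed, 2 replicates of each of 3 treatments in 2 cell lines, grouped by their labels. Per the labels and the study's methods, the authors extracted RNA normalized by cell count, added ERCC spike-ins, made stranded libraries, aligned single-end reads of 75 bases to hg19 with HiSat, and computed FPKM with cuffquant and cuffnorm. They then normalized these FPKM to the spike-ins. The authors deposited the FPKM in a separate file for each line, with 23713 rows, 92 of them ERCC RNAs, which were left out. The tables hold no counts, so the depth is unknown, edgeR was not used, and no counting interval is given.

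Here log2(FPKM + 1) of the 14251 genes above 1 FPKM in at least 1 library was fitted per line with limma 3.58.1 in R 4.3.3 (lmFit, eBayes with trend), two-sided, with 3 groups of 2 libraries and Benjamini-Hochberg adjustment over all active genes. With 3 residual degrees of freedom the spread is poorly known for single genes. Fold changes on this scale understate those of low genes. Calls needed a log2 fold change beyond 0.5 with an adjusted p under 0.001. The fit was tested on simulated data in which few genes changed and genes varied independently. Those data lack the broad fall and the shared replicate shifts described above, so that test cannot speak for calls made under them. Shares were tested by exact permutation over libraries. Over all active genes the deviations of same-numbered replicates had correlations from -0.07 to 0.03, so the numbers were not taken as pairs, although most members were lower in replicate 2 in each Ku group. Small RNA rows are those named as microRNA, small nucleolar, small nuclear and like genes.

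The members and all lists were chosen with earlier results of these data known. Genes named with full statistics were, per line, the 4 largest and 4 smallest falls at 250 nM, the 3 highest levels in DMSO, RPL21 and genes of set roles. Others were named after their values were seen. Positions and mRNA features come from GENCODE lifted to GRCh37 (12757 of 14251 active symbols and all 76 members matched), and promoter sequences from RefSeq on GRCh38.p14 (62 members matched). Results on some single members are not reported here. Amino acid sequences were not used here. Files were read with the R package data.table (1.17.8), pandas 2.3.3 and numpy 2.4.6 in Python 3.11.15, and figures drawn with matplotlib 3.10.9. Alternatives were a pseudocount of 0.1, a minimum of 10 FPKM, no minimum, 3 rescalings, a replicate block, no trend, an adjusted p under 0.05, a fit of only the groups compared, and leaving out each library. Recomputing the number of members above the median active gene under each of them was added after the data were seen.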

Additional observations from a re-analysis of the deposited data

Results flagged for a closer look

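Among the members described with full statistics, RPL21 and RPS15 had every THZ1 library above both DMSO libraries in Ku cells at a dose at which every THZ1 library lay below both DMSO libraries in Cov cells. The difference between the lines was not tested, and none of the Ku values passed the thresholds. Over all 76 members, 4 had both 50 nM libraries of Ku cells above both DMSO libraries, and 16 had them below. Those counts were 492 and 10798 among the 14251 active genes. With the same dose all 76 members lay below DMSO in Cov cells, so 4 members had this pattern. At 50 nM the log2 fold changes were 0.66 in Ku and -3.95 in Cov cells for RPL21, and 0.080 and -0.51 for RPS15. At 250 nM they were 0.36 and -0.69 for RPL21. Over the 75 members other than RPL21, the Ku DMSO replicates differed by a median of -0.13, larger in size than the RPS15 change of 0.080.

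RPS15, of the small subunit, had 1084 and 1065 FPKM in DMSO, 1139 and 1133 at 50 nM and 873 and 841 at 250 nM in Ku cells. Its level at 50 nM, above both DMSO libraries, was followed by one below DMSO at 250 nM. The 50 nM value of RPL21 in Cov cells rests on 1 library at 0.121 FPKM beside 1 at 213.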

How the results depend on the processing

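On the deposited scale the direction of the median member was the same in every fit that kept that scale or reset it to the spike-ins, except at 50 nM in Ku cells without DMSO replicate 1 (0.0288) or without 50 nM replicate 2 (0.0102). The counts of calls depended on the setting. Each group has 2 libraries. No depth is known for these libraries, and the tests can say little of changes under the shift between replicates. The cause of each difference between settings below was not tested unless given.

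Scaling removes by its construction a fall common to all genes, and it turned the medians of the members at 50 nM to 0.68 (Ku) and 0.68 (Cov) by the median gene and to 0.53 and 0.49 by median of ratios. The medians at 250 nM turned to 1.62 and 1.30, and to 1.10 and 0.84. Those of 250 nM against 50 nM turned to 0.97 and 0.61, and to 0.59 and 0.35. Under both scalings 0 members were called lower. Called higher at 250 nM were 72 (Ku) and 75 (Cov) by the median gene and 57 and 74 by median of ratios, and 1 (Ku) and 5 (Cov) for 250 nM against 50 nM by the median gene. The shares of active genes called higher were, in the same order, 26.9% and 26.4%, 11.1% and 8.57%, and 6.46% and 3.16%. Members ordered by dose fell to 0 in both lines under both scalings. Log2 fold changes of single members at 250 nM also turned. By the median gene they were, in Ku cells, RPL13 1.22, RPL8 1.30, RPL29 1.34, RPL7A 1.38, RPL38 1.85, RPS27 1.89, RPL39 1.98, RPS18 1.68, RPL37A 1.71, RPLP0 1.59, RPLP1 1.58, RPLP2 1.46, RPSA 1.72, RPS6 1.60, RPL5 1.59, RPL11 1.61 and RPS27A 1.68, and in Cov cells RPL5 1.12, RPL27A 1.13, RPL4 1.14, RPL15 1.14, RPL37 1.42, RPLP2 1.44, RPS15 1.44, RPS2 1.46, RPL41 1.33, RPS27 1.31, RPLP1 1.40, RPL21 1.37, RPLP0 1.33, RPSA 1.36, RPS6 1.16, RPL11 1.36 and RPS27A 1.34. By median of ratios they were, in Ku cells, RPL13 0.70, RPL8 0.78, RPL29 0.82, RPL7A 0.86, RPL38 1.33, RPS27 1.37, RPL39 1.46, RPS18 1.16, RPL37A 1.19, RPLP0 1.07, RPLP1 1.06, RPLP2 0.93, RPSA 1.20, RPS6 1.08, RPL5 1.07, RPL11 1.09 and RPS27A 1.16, and in Cov cells RPL5 0.66, RPL27A 0.67, RPL4 0.68, RPL15 0.68, RPL37 0.96, RPLP2 0.98, RPS15 0.98, RPS2 1.00, RPL41 0.87, RPS27 0.85, RPLP1 0.94, RPL21 0.92, RPLP0 0.87, RPSA 0.90, RPS6 0.70, RPL11 0.90 and RPS27A 0.87.

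Recentring on the spike-ins gave 14 calls at 250 nM in Ku cells, 5 calls at 50 nM in Cov cells, and 30 members ordered by dose in Ku cells. Beside these calls, 70.9% (Ku) and 68.3% (Cov) of active genes were called lower. With no minimum FPKM, which adds unexpressed rows to the fit, the calls were 3 at 250 nM and 0 for 250 nM against 50 nM in Ku cells. In Cov cells they were 3 at 50 nM and 14 at 250 nM. Of all rows, 34.5% and 8.05% were called lower in those Ku comparisons and 35.1% and 47.8% in those of Cov cells. Measured against the median of that larger set of rows, 5 members lay above it for 250 nM against 50 nM in Ku cells, and 20, 13 and 1 at 50 nM, 250 nM and 250 nM against 50 nM in Cov cells. A minimum of 10 FPKM gave 4 calls for 250 nM against 50 nM in Ku cells and 19 at 50 nM in Cov cells. Without the trend the calls were 0 and 16, at an adjusted p under 0.05 they were 4 and 55, and with only the groups compared they were 1 and 4, with 3 at 250 nM in Ku cells and 43 at 250 nM in Cov cells. With the small RNA rows left out, the share at 250 nM differed from DMSO by 7.48 (Ku) and 6.26 (Cov) percentage points, in place of 6.47 and 3.36. At 50 nM in Cov cells the difference was 3.23, in place of -0.34.

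With the replicate number as a block, the calls were 12 at 250 nM and 4 for 250 nM against 50 nM in Ku cells, and 1 at 50 nM and 20 at 250 nM in Cov cells, with medians as without the block. In the same order, 66.6% and 34.7% of active genes were called lower in Ku cells and 51% and 78.6% in Cov cells. Over all active genes the deviations of same-numbered replicates were not correlated (from -0.07 to 0.03), but the members were mostly lower in replicate 2 in each Ku group, with medians of -0.13, -0.0749 and -0.16.

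Leaving out 1 library at a time gave 1 to 4 calls at 250 nM in Ku cells and 0 to 1 for 250 nM against 50 nM. In Cov cells it gave 0 to 29 calls at 50 nM and 7 to 73 at 250 nM, with 0 to 1 called higher for 250 nM against 50 nM. The medians in Cov cells ran from -0.65 to -0.44 at 50 nM and from -0.88 to -0.68 at 250 nM. In Ku cells the medians ran from -0.0925 to 0.0288 at 50 nM, from -0.43 to -0.29 at 250 nM and from -0.39 to -0.24 for 250 nM against 50 nM, and for that step in Cov cells from -0.27 to -0.21. The log2 fold change at 250 nM in Ku cells ran from -0.2008 to 0.0253 for RPS27 and from -0.0913 to 0.0876 for RPL39. The share differed by 2.11 to 3.04 and 6.00 to 6.94 percentage points at 50 nM and 250 nM in Ku cells, and by -1.02 to 0.34 and 3.23 to 3.49 in Cov cells. A lone library was assumed to vary like the other groups.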
